A study of Mus musculus with 9 samples.

Results

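The genes described here are 45 genes of the cell division cycle in the mouse brain, 23 that act in DNA replication and 22 that act in mitosis. They were listed by name and not picked gene by gene from their values, but the list was chosen with earlier results of these data known. All 45 were found among the 32287 gene IDs of the matrix. Their level in CPM (UMIs, or counted molecules, of a gene per 1000000 UMIs of the same cells) and the share of cells with a UMI were followed from quiescent to activated neural stem cells (NSCs), transit-amplifying progenitors (TAPs) and neuroblasts.

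The cells came from TiCY mice, in which tamoxifen switches on a Cre recombinase driven by Tlx, a nuclear receptor gene of neural stem cells, so that recombined cells and their progeny carry eYFP. The study asked how interferon receptors of type I and type II act on stem cells of the ventricular-subventricular zone (vSVZ) with age, and it compared wild-type mice (WT) with mice lacking Ifnar1 and Ifngr1 (IFNAGR knockout, here KO). WT young mice were 16 weeks old (tamoxifen at 10 weeks, 6 weeks of chase), WT old mice were 80 weeks old (tamoxifen at 71 weeks), KO young mice were 16 weeks old (tamoxifen at 7 weeks) and KO old mice were 92 to 105 weeks old by the labels (tamoxifen at 85 and 98 weeks), the last 3 groups with 9 weeks of chase. The ages, tamoxifen times and chase labelled for KO old mice do not add up exactly. Cells of 2 mice a group were sorted from the vSVZ (eYFP+ and GLAST+) and from a pool of olfactory bulb, rostral migratory stream and striatum (eYFP+, and eYFP- with low PSA-NCAM), leaving out CD45+, Ter119+ and O4+ cells. All mice of all groups carried the TiCY transgenes and received tamoxifen.

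Each group was run as 1 droplet reaction, so group and reaction cannot be told apart, and a hashtag names the mouse only for the cells that carry one (31.2% of 18059 cells). The 4 libraries held between 2396 and 6462 cells after filtering, with median depths between 5026 and 7393 UMIs a cell, and any 2 libraries shared at most 9 barcodes. Values of the libraries are given in the order WT young, WT old, KO young, KO old, and those of mice as pairs in the same order. The targeted gene Ifngr1 stood at 46.8, 85.4, 2.88 and 4.4 CPM and Ifnar1 at 21.2, 28.6, 8.09 and 6.56, so both were lower in the libraries labelled KO. Intervals given below are exact 95% intervals and cover counting error only.

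A cell about to copy its genome first licenses replication origins by loading the Mcm2 to Mcm7 ring with Cdc6 and Cdt1, and then fires them with Cdc45 and the GINS proteins. Genes for these steps, for the synthesis of DNA and for its building blocks are switched on by E2F factors at the entry to S phase. Genes for the spindle, the kinetochore and the cyclin B kinase are switched on later, towards G2 and mitosis, mainly through a CHR element bound by the DREAM and MuvB complexes and through CCAAT boxes bound by NF-Y. In the vSVZ, quiescent stem cells rest outside the cycle, activated stem cells enter it, TAPs divide quickly, and neuroblasts still divide while they start to migrate to the olfactory bulb.

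The replication genes comprised 9 genes of origin licensing (Mcm2, Mcm3, Mcm4, Mcm5, Mcm6, Mcm7, Mcm10, Cdc6 and Cdt1), 3 of helicase activation (Cdc45, Gins1 and Gins2), 6 of DNA synthesis (Pcna, Rfc3, Rfc4, Pola1, Prim1 and Lig1), 4 of nucleotide supply (Rrm1, Rrm2, Tyms and Dut) and Uhrf1, which guides the copying of DNA methylation. The mitosis genes comprised 3 of chromosome structure (Top2a, Mki67 and Nusap1), 4 of kinetochore and checkpoint (Cenpf, Cenpe, Bub1 and Bub1b), 5 mitotic kinases and partners in the chromosomal passenger complex (Aurka, Aurkb, Plk1, Birc5 and Cdca8), 2 of the spindle (Tpx2 and Kif11), 2 of the anaphase promoting complex (Ube2c and Cdc20), 4 cyclins and their kinase (Ccnb1, Ccnb2, Ccna2 and Cdk1) and 2 of cytokinesis (Cit and Prc1).

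The promoters of both groups carried different letters. RefSeq promoters (GRCm38.p6, from 250 bases before to 50 after each start) were at hand for 39 of the 45 genes, as 44 promoters, and none was given for Gins1, Mcm4, Gins2, Aurkb, Ccna2 and Tpx2. The E2F letters searched were TTGGCGC, further TTCCCGC, further TTGCCGC and lastly TTCGCGC on both strands, and they were found in 17 of 24 replication promoters (70.8%), in 3 of 20 mitosis promoters (15%) and in 9.57% of all 32851 promoters. The CHR letters TTTGAA or, as a variant, TTTAAA, on both strands, were found in 5 of 24 replication promoters (20.8%), in 17 of 20 mitosis promoters (85%) and in 27.6% of all promoters. CCAAT was found on either strand in 66.7%, 85% and 37.4%, and a CHR match together with CCAAT in 20.8%, 80% and 10.7%. A match is a run of letters and not a shown binding site. The windows below, 30 bases each on the strand of the gene, come from genes chosen for their roles and show matches only. These genes stand for origin licensing (Mcm6, Cdc6), nucleotide supply (Rrm2), anaphase promotion (Cdc20, Ube2c), cyclin B (Ccnb1), the kinetochore (Cenpf) and cytokinesis (Prc1). Pcna was also chosen for E2F letters but held none, and none were found for Mcm2, Mcm10, Cdc45, Dut and Tyms. Capitals mark the matched letters.
Mcm6, E2F letters, chr1:128359663-128359692, minus strand: gccggaggcgcGCGCGAAgtggcagcgcgg
Cdc6, E2F letters, chr11:98908002-98908031, plus strand: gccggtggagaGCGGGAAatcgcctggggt
Rrm2, E2F letters, chr12:24708008-24708037, plus strand: caccaacctcaGCGGCAAcgcccgcccggc
Ccnb1, CHR letters, chr13:100786511-100786540, minus strand: agcggcccggggTTTAAAcctaagcccggc
Ccnb1, CCAAT, chr13:100786536-100786565, minus strand: gccacgaactggCCAATgaggagcgagcgg
Cdc20, CHR letters, chr4:118437344-118437373, minus strand: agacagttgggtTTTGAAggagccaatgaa
Ube2c, CHR letters, chr2:164769888-164769917, plus strand: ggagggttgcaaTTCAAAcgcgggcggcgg
Cenpf, CHR letters, chr1:189688067-189688096, minus strand: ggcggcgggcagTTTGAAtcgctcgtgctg
Prc1, CHR letters, chr7:80294434-80294463, plus strand: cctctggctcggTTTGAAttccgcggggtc
In Mcm6, Cdc6, Rrm2 and Ube2c the match lies on the strand opposite to the gene, so the capitals are the reverse complement of the letters searched. The Cdc20 window also holds CCAAT a few bases after its CHR letters. The promoter of Cit, which differs from the other mitosis genes in the cells described below, held none of the 3 motifs in this window, and neither did that of Nusap1.

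Cells were grouped without the use of cell cycle genes (332 genes were left out of the clustering) and named from marker genes. Quiescent NSC-like cells, counted with a vSVZ hashtag, numbered 406, 416, 483 and 582, and they held the markers Aqp4 (428 to 627 CPM) and S100b (86.8 to 167). This class may hold vSVZ astrocytes, which share these markers. Activated NSC-like cells, led by Nptx2, numbered 123, 36, 137 and 90, with Egfr, the receptor of activated stem cells, at 423 to 805 CPM against 60.1 to 77.6 in quiescent cells. TAP-like cells numbered 404, 29, 211 and 38 and held Dlx2, a transcription factor of progenitors and neuroblasts, at 367 to 456. Neuroblast-like cells numbered 3529, 358, 3060 and 601 and held Dcx, a microtubule protein of migrating neuroblasts, at 518 to 852. Activated and TAP-like cells split only after a further division of 1 cluster, chosen after seeing the data, so their border is not firm. The border between TAP-like and neuroblast-like cells also depended on the clustering. With cell cycle genes kept in it, no cluster was named TAP-like, and 921 cells led by Ung, Mcm3 and Mcm2 were named neuroblast-like.

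Of these 4 classes, both gene groups were lowest in quiescent cells and highest in TAP-like or neuroblast-like cells, but they did not climb together. Summed over the 23 replication genes, quiescent NSC-like cells held 306 (284 to 330), 208 (193 to 225), 297 (280 to 314) and 195 (182 to 209) CPM. Activated NSC-like cells held 1491 (1415 to 1569), 458 (397 to 526), 1272 (1216 to 1330) and 854 (799 to 911), TAP-like cells 5528, 4281, 4422 and 5200, and neuroblast-like cells 2368, 1643, 1837 and 1740. In all 4 libraries the summed replication level was lowest in quiescent cells and highest in TAP-like cells. Neuron-like cells, which do not divide, held 374, 272, 357 and 307 CPM, more than quiescent cells as a whole in each library. Within the quiescent class, the cluster richest in eYFP (399, 326, 465 and 352 CPM) stood above neuron-like cells in each library and the other quiescent clusters together (217, 188, 202 and 162 CPM) stood below them.

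Summed over the 22 mitosis genes, quiescent NSC-like cells held 53.0 (44.0 to 63.4), 33.4 (27.3 to 40.5), 86.2 (77.2 to 95.9) and 56.1 (49.3 to 63.6) CPM. Activated NSC-like cells held 444, 222, 222 and 169, TAP-like cells 4102, 1599, 3782 and 1998, and neuroblast-like cells 3723, 2463, 2242 and 2533. Within the limits of the cell filter, the largest step of this list in each library, by fold, was from activated NSC-like to TAP-like cells. Neuron-like cells held 306 to 383, and 237 to 295 of these came from Cit alone.

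**Figure D1:**
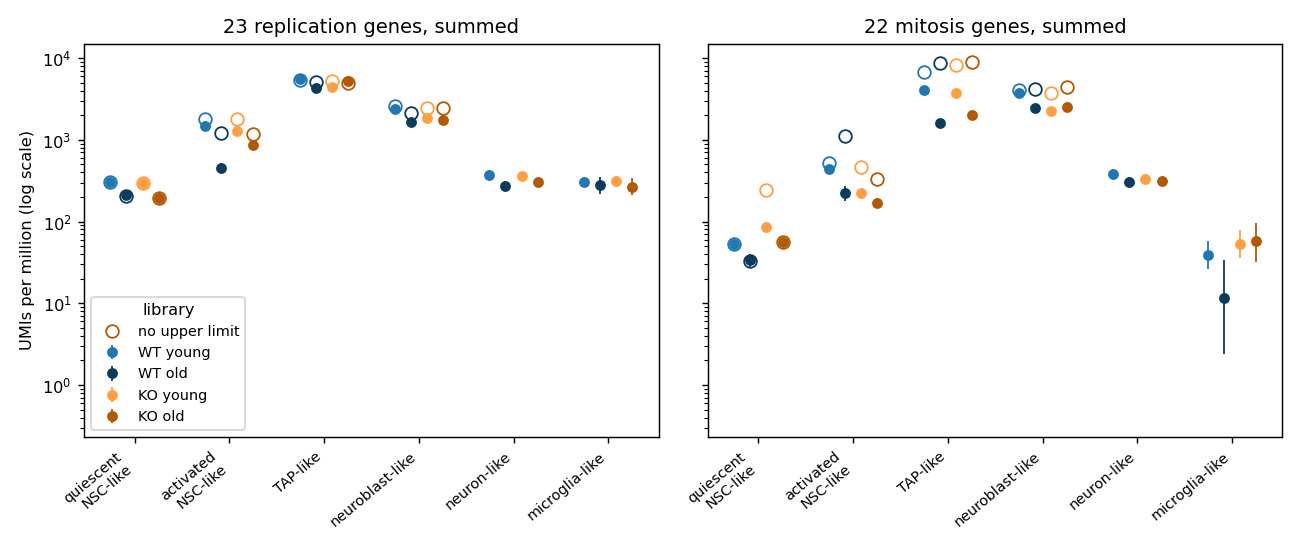
Summed CPM of the 23 replication genes (left) and the 22 mitosis genes (right) on log axes, by cell class (horizontal axis) and library (colour). Filled points have exact 95% counting intervals, mostly smaller than the points, and open points are the same class without the upper limits on UMIs and genes per cell; the open points of TAP-like cells stand well above the filled ones in the mitosis panel, and most in both old libraries.

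The ratio of mitosis to replication UMIs turned over along the lineage. On the log2 scale it was -2.19 ± 0.46 (SD, n = 4 libraries) in quiescent NSC-like cells, -1.91 ± 0.67 in activated NSC-like cells, -0.86 ± 0.62 in TAP-like cells and 0.52 ± 0.16 in neuroblast-like cells. The 4 libraries of neuroblast-like cells all had more mitosis than replication UMIs (0.65, 0.58, 0.29 and 0.54), and those of the other 3 classes all had fewer. Quiescent and activated cells overlapped in this ratio over the libraries (-2.64 to -1.78 against -2.52 to -1.04). By library it was -2.53, -2.64, -1.78 and -1.80 in quiescent and -1.75, -1.04, -2.52 and -2.33 in activated cells. Activated cells thus had the higher ratio in both WT libraries and the lower one in both KO libraries. Among TAP-like cells both young libraries (-0.43 and -0.23) stood above both old ones (-1.42 and -1.38).

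This order rests in part on an upper limit of the cell filter, which follows the study's methods and removes barcodes over 20000 UMIs or 6000 genes. The 821 barcodes above these limits (145, 76, 446 and 154 by library) held 8725 to 11485 CPM of mitosis genes and 4144 to 5027 of replication genes, more mitosis RNA than the TAP-like or neuroblast-like class of any library had within the limits. A doublet caller marked 67 of them, and of the 754 others 384 fell in the TAP-like and 252 in the neuroblast-like class. With them kept and the cells clustered anew, an alternative added after seeing the data, TAP-like cells held 6812, 8646, 8179 and 8991 CPM of mitosis genes and their mean log2 ratio was 0.65 instead of -0.86, while neuroblast-like cells had 0.78. The lower mitosis level of TAP-like cells in both old libraries was then absent. The limits took out 90 of 412, 36 of 52, 186 of 355 and 72 of 104 TAP-like cells, so the class within them is the shallower share of such cells, in both old libraries above all.

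The share of cells with at least 1 UMI of either list was 76.4% ± 5.78 (SD, n = 4 libraries) in quiescent, 97.8% ± 2.46 in activated, 100% in TAP-like and 94.8% ± 1.87 in neuroblast-like cells. Because TAP-like cells held 13102 to 16322 UMIs at the median and quiescent cells 5522 to 8085, every cell was also thinned to 1000 UMIs. The shares were then 23.8%, 48.3%, 95.5% and 59.5%. For replication genes alone the thinned share in quiescent cells ran from 15.6% to 25.9% and in neuron-like cells from 23% to 28.2%, lower in quiescent cells as a whole in each library, so for the whole class this share was not above that of neuron-like cells. For mitosis genes it ran from 4.33% to 5.67% in quiescent, 8.33% to 13.9% in activated, 47.4% to 66.1% in TAP-like and 13.1% to 21.9% in neuroblast-like cells. Microglia-like cells had 0% to 8.60%, so the quiescent share of mitosis genes was within the range of that class too.

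In activated against quiescent NSC-like cells, the step out of quiescence, more replication than mitosis genes were higher. In the 3 libraries with 50 or more cells of both classes, 28 of 45 genes were over 2-fold higher in every library, against 7.46% of all genes compared, and 19 of these were replication genes and 9 mitosis genes. Of the 45, 41 had enough UMIs to be compared, 22 of replication and 19 of mitosis. The count was 9 with cell cycle genes kept in the clustering and 15 in thinned cells. The median log2 ratio, averaged over these libraries, was 2.18 over the replication genes and 1.71 over the mitosis genes, against 0.18 over all genes. By library the medians were 2.30 and 2.55 in WT young cells, and in the KO libraries 1.96 and 1.02 (young) and 2.25 and 1.59 (old), so replication genes had the higher median in both KO libraries and mitosis genes in WT young. Classes were built from the same cells, so these values and those of the next class comparisons are descriptions without a test.

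The licensing gene Mcm2 had the largest ratio (12.9-fold on average). It stood at 2.63, 0.955, 2.81 and 0.693 CPM in quiescent cells and at 35.8, 15.9, 52.7 and 24.3 in activated cells, with no overlap. Uhrf1 (10.4-fold) and Mcm6, another subunit of the Mcm ring (10.0-fold), came next, and Mcm6 was found in 2.92% to 5.80% of quiescent and 13.9% to 43.1% of activated cells. Pcna, the sliding clamp of the DNA polymerases, was also found outside the cycle, at 40.2 to 57.0 in quiescent, 63.5 to 161 in activated and 66.9 to 83.4 CPM in neuron-like cells. The smallest ratios were those of the spindle motor Kif11 (0.99-fold), of Cit (1.19-fold) and of the primase subunit Prim1 (1.95-fold).

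Several mitosis genes were close to their counting floor before the TAP stage. Ccnb1, the cyclin that drives entry into mitosis, had 2, 1, 2 and 0 UMIs in quiescent cells and 2, 1, 6 and 2 in activated cells, and Plk1, a mitotic kinase, had 1, 0, 7 and 2 against 1, 0, 6 and 4. With so few UMIs their ratios are known only roughly. The proliferation marker Mki67 stood at 1.32, 1.91, 6.65 and 1.15 CPM in quiescent and 37.9, 13.6, 9.22 and 5.62 in activated cells. Cenpf, a kinetochore protein made late in the cycle, stood at 4.38, 1.27, 5.37 and 1.62 in quiescent and at 62.5, 61.2, 40.2 and 17.8 in activated cells, with no overlap. Bub1b, a kinase of the spindle checkpoint, had 0, 0, 0.256 and 0.231 against 12.3, 2.27, 2.63 and 1.87.

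In TAP-like against activated NSC-like cells, both groups were higher and the mitosis genes by more. Both young libraries had enough cells of each class, and in these all 45 genes were over 2-fold higher in TAP-like cells, against 5.5% of all genes. The median log2 ratio was 3.8 over the mitosis genes and 1.75 over the replication genes. Ccnb1 was 35.7-fold, Ube2c, the ubiquitin-conjugating enzyme of the anaphase promoting complex, 25.5-fold and Plk1 20-fold higher. The smallest ratios were those of Pola1, the catalytic subunit of DNA polymerase alpha (2.55-fold), of the clamp loader subunit Rfc3 (2.69-fold) and of Mcm4 (2.73-fold).

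Against quiescent cells, all 45 genes were likewise over 2-fold higher in TAP-like cells of both young libraries (17.7% of all genes), with medians of 4.04 for replication and 5.56 for mitosis genes on the log2 scale. Ccnb1 (82.4-fold), Cenpf (76.9-fold) and Cdca8, the borealin subunit of the passenger complex (66.9-fold), had the largest ratios, and Prim1 (7.19-fold), Mcm4 (7.27-fold) and Pola1 (7.51-fold) the smallest. These ratios carry 1 CPM added to each level, which lowers the ratio of genes near 0. With the 2 UMIs of Ccnb1 in quiescent cells of either young library, its ratio is known only roughly.

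**Figure D2:**
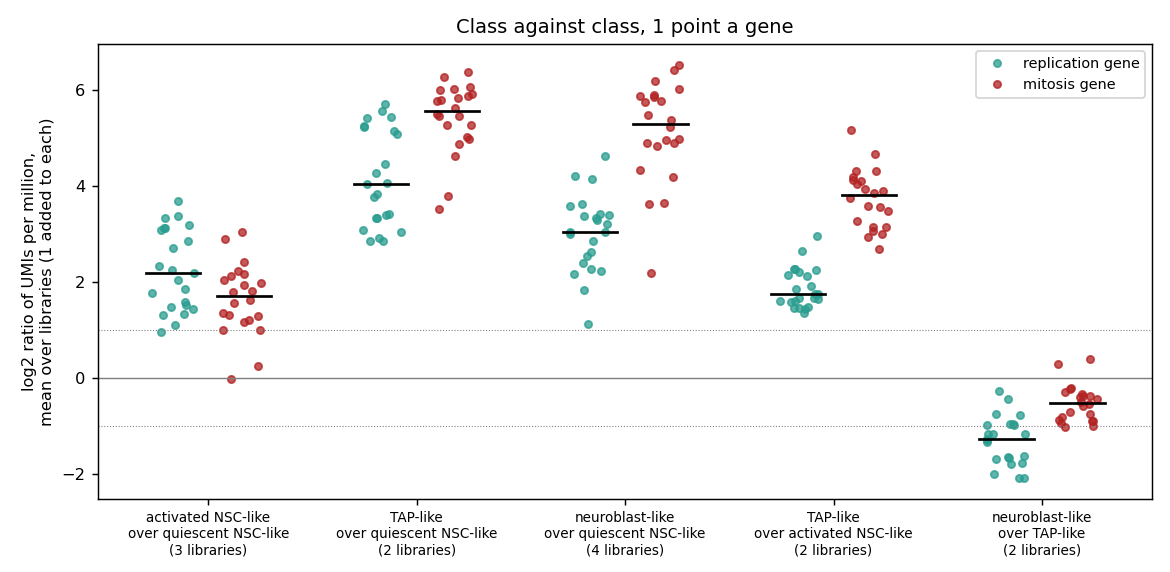
Log2 ratio of CPM (1 added to each level), averaged over libraries, for each gene (points) in 5 comparisons of cell classes (horizontal axis), with black bars at the medians and dotted lines at 2-fold. The median of replication genes lies above that of mitosis genes from quiescent to activated cells (2.18 and 1.71, with the other order in WT young at 2.30 and 2.55) and below it from activated to TAP-like cells (1.75 and 3.8).

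From TAP-like to neuroblast-like cells, replication genes were lower by more than mitosis genes. In both young libraries 14 genes were over 2-fold lower in neuroblast-like cells (11.1% of all genes) and 0 were over 2-fold higher (8.36% of all genes), and all 14 were replication genes. They comprised Uhrf1, Gins2, Pcna, Rfc4, Dut and all 9 licensing genes. Mcm3 (0.24-fold), Mcm2 (0.24-fold) and Cdc6, the loader of the Mcm ring (0.25-fold), had the lowest ratios. Mcm3 stood at 336, 274, 257 and 332 CPM in TAP-like cells and at 82.7, 40.7, 57.4 and 60.0 in neuroblast-like cells, with no overlap in any of the 4 libraries. The highest ratios were those of Ube2c (1.31-fold), Nusap1, a spindle-associated protein (1.23-fold), and Aurka, a kinase of spindle poles (0.87-fold). The median log2 ratio was -1.26 over the replication genes and -0.52 over the mitosis genes. With the upper limits off the medians were nearer, at -1.14 and -0.94, and 12 replication and 4 mitosis genes were over 2-fold lower in both young libraries.

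Against quiescent cells, 43 of 45 genes were over 2-fold higher in neuroblast-like cells in all 4 libraries (15.4% of all genes), and the exceptions were Mcm4 and Cit. Top2a, which untangles chromosomes, stood at 7.89, 1.27, 11.5 and 2.31 CPM in quiescent and at 611, 435, 441 and 506 in neuroblast-like cells, and had the largest ratio (91.9-fold). Cenpf (85.1-fold) and Ube2c (72.4-fold) followed. Mcm4 (2.17-fold), Pcna (3.55-fold) and Gins2 (4.47-fold) had the smallest.

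Within the neuroblast-like class, nearly all mitosis RNA lay in 1 of its 5 clusters. This cluster was picked for its mitosis level, the highest of the 5, so its large mitosis share follows in part from the choice. That cluster, led by Nusap1 and by histone genes, had 779 of 7548 neuroblast-like cells (10.3%) and 20.5% of their UMIs, but 92.1% of their mitosis UMIs and 50.9% of their replication UMIs. Among the mitosis genes this share ran from 85.6% for Cit to 95.6% for Aurkb, the kinase of the passenger complex. Among the replication genes it ran from 30.6% for Rfc3 to 78.1% for Rrm2, the cell cycle-bound subunit of ribonucleotide reductase, so no mitosis gene overlapped a replication gene in it. The cluster held 12939, 14754, 12423 and 15675 CPM of mitosis genes and 5237, 4591, 4995 and 4124 of replication genes. Its cells were still neuroblast-like by their markers, with Dlx2 at 833 and Dcx at 296 CPM, the latter below the 560 to 891 of the other 4 clusters.

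A second neuroblast-like cluster, led by St18, held replication RNA without a matching share of mitosis RNA. Its replication level was 2552, 2180, 2369 and 2731 CPM and its mitosis level 827, 450, 718 and 657. The other 3 clusters, led by Sfrp2, Sln and Parm1, held 588 to 777 CPM of replication genes and 14.1 to 107 of mitosis genes. Without the dividing cluster, an alternative added after seeing the data, the neuroblast-like log2 ratio of mitosis to replication was -2.34 in place of 0.52. As that cluster was picked for its mitosis level, a lower ratio without it follows from the choice.

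**Figure D3:**
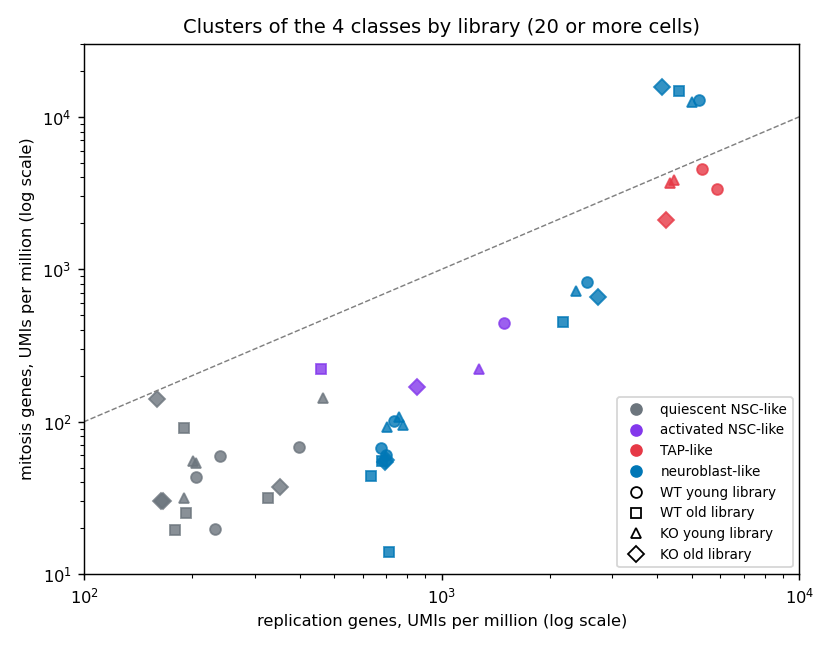
Mitosis against replication genes, summed CPM on log axes, for each cluster of the 4 classes (colour) in each library (marker shape) with 20 or more cells; the dashed line marks equal levels. The dividing neuroblast-like cluster lies above the line in all 4 libraries at 12423 to 15675 CPM of mitosis genes, while TAP-like clusters lie below it.

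In cells of the dividing cluster, more UMIs of one list tended to go with fewer of the other. In cells thinned to 1000 UMIs, the rank correlation across cells between replication and mitosis UMIs was -0.54 (455 cells), -0.36 (28 cells), -0.35 (252 cells) and -0.50 (44 cells). In TAP-like cells it was 0.10, 0.20, 0.01 and 0.23. Cells of a library share its depth and background RNA, so these values are descriptions. More mitosis than replication UMIs were found in 73.2% to 89.3% of cells of the dividing cluster and in 7.89% to 29.4% of TAP-like cells.

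Age and genotype were compared over mice, 2 a group, with edgeR's quasi-likelihood test on UMIs summed per mouse, fitted over all genes, and a gene was called at an adjusted p below 0.05. Genotype in old mice and the interaction cannot be told apart from the older age of KO old mice (92 to 105 against 80 weeks). Comparisons with WT young mice cannot be told apart from their chase of 6 weeks, against 9 in the other groups. Quiescent NSC-like and neuroblast-like cells gave 20 or more cells with a hashtag in all 8 mice. For activated NSC-like cells 2 mice reached that number and for TAP-like cells 1, so at this minimum those classes could not be tested. As values, all 23 replication genes and 16 of 22 mitosis genes were lower in the old than the young WT library of activated cells (36 and 123 cells), against 50.5% of all genes, and 21 of 23 and 15 of 22 were lower in the old KO library, against 51.2%. Markers of quiescent cells moved with them. The 8 quiescent markers, none of them at 0 in all libraries, summed to 4321, 7577, 4037 and 6559 CPM in activated cells, and Aqp4 stood at 16.4, 134, 15.8 and 79.6 CPM, both higher in the old library of each genotype. Their part in the result was not tested. With the upper limits off, activated cells held 1773, 1217, 1783 and 1187 CPM of replication genes, again less in both old libraries. Mitosis genes then stood at 523, 1121, 467 and 333 CPM, so the old WT library was the highest. In that library quiescent cells then held 33.3 and TAP-like cells 8646 CPM.

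With a minimum of 10 cells, 6 mice gave activated NSC-like cells (2 WT and 1 KO mouse among the young, 1 WT and 2 KO mice among the old), and a mouse alone in its group is assumed to vary like the others. Of the 45 genes 26 were tested, and 3 fell with age in WT (0.976% of all 5328 genes called). Dut had 172 and 274 CPM in the WT young mice, 34.6 in the WT old mouse, 284 in the KO young mouse and 161 and 132 in the KO old mice (log2 change with age in WT -2.73 ± 0.54, adjusted p = 0.00167, edgeR). Mcm7 had 165 and 195, 41.5, 148, and 102 and 52.8 CPM in the same order (-2.13 ± 0.55, adjusted p = 0.0299, edgeR). Mcm4 changed by -3.94 ± 0.95 (adjusted p = 0.0160, edgeR), with 1 UMI in the WT old mouse. In each of these genes the single WT old mouse, with 11 cells, was lowest. Summed replication genes were at 1993, 460, 1856 and 1029 CPM in hashtagged activated cells by library and at 1178, 457, 1137 and 720 in the others. The WT fall with age was therefore larger in hashtagged cells, from which the tested mice come, than in the others. No member was called by edgeR for age in KO (0.45% of all genes called, 10 members at an unadjusted p below 0.05), for genotype in young mice (0.263%, 0 members unadjusted), for genotype in old mice (0.0938%, 3 unadjusted) or for the interaction (0.263%, 5 unadjusted). TAP-like cells, with 3 mice at this minimum, could not be fitted.

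In quiescent NSC-like cells, 20 of the 45 genes passed the filter on low counts and were tested. With age in WT 3 of them fell and 0 rose, among 15.4% of all 10188 genes called (8.07% lower), so the share of members called was near that of genes at large. Rrm1, the large subunit of ribonucleotide reductase, had 29.6 and 25.9 CPM in the young and 13.4 and 13.8 in the old WT mice, with no overlap, and a log2 change of -0.99 ± 0.30 (SE, adjusted p = 0.0233, edgeR). Rfc4, a clamp loader subunit, had 16.7 and 10.6 against 8.27 and 2.30 CPM (-1.58 ± 0.55, adjusted p = 0.0490, edgeR), also with no overlap. Top2a had 1.29 and 11.3 against 2.07 and 0.92 CPM, so the mice overlapped, and its log2 change of -2.49 ± 0.84 (adjusted p = 0.0416, edgeR) came to 0.01 without WT young replicate 2. Of the 4 fits that each left out 1 mouse, Rrm1 was called in 0, Rfc4 in 1 and Top2a in 1. These fits called 1 member without WT young replicate 1, 2 without WT old replicate 1 (Rfc4 lower, and Cit higher by 1.97 on the log2 scale, adjusted p = 0.0181, edgeR) and 0 without either of the remaining mice, and DESeq2 called 0.

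With age in KO, 2 members fell and 1 rose, among 4.61% of all genes called (2.39% lower and 2.22% higher). Dut, which keeps uracil out of DNA, had 45.9 and 36.3 CPM in the young and 20.9 and 27.1 in the old KO mice (log2 change -0.74 ± 0.21, adjusted p = 0.0314, edgeR). Top2a had 17.2 and 7.68 against 2.41 and 2.17 CPM (-2.30 ± 0.59, adjusted p = 0.0170, edgeR). Young and old mice did not overlap for either gene, yet each was called in 1 of the 4 fits that left out a mouse. Without KO young replicate 1 or KO old replicate 1, and by DESeq2, 1 member was called for age in KO. The member that rose was Cit, described further on.

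No member was called in quiescent cells for genotype in young mice (2.44% of all genes called, 2 members at an unadjusted p below 0.05, 0 by DESeq2). The same held for genotype in old mice (0.157%, 2 members unadjusted, 0 by DESeq2) and for the interaction of age and genotype (0.932%, 0 members unadjusted, 0 by DESeq2). Leaving out KO old replicate 1 brought 1 call for genotype in old mice. These counts rest on the 20 members with enough UMIs.

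The make-up of the quiescent class moved with age beside these genes. The quiescent cluster richest in eYFP (led by Thbs4 and Ecel1) took up 45% and 51.1%, 23.8% and 11.2%, 38.9% and 36.9%, and 15.8% and 17.9% of quiescent cells in the pairs of mice, so its share was lower in all old mice. It held 399, 326, 465 and 352 CPM of replication genes against 217, 188, 202 and 162 in the other quiescent clusters. In it 14 of 23 replication genes but 3 of 22 mitosis genes were higher in all 4 libraries. Among genes with 10 or more UMIs these were 14 of 22 and 3 of 17, against 26.7% of all such genes. Mitosis genes such as Bub1b, Aurkb and Plk1 stood at 0 CPM in it in some libraries, so they could not be higher in all 4. Without this cluster 13 members could be tested. Of these 0 were called for age in WT (4.66% of all genes called), and for age in KO only Cit was called (1.63% of all genes). Its part in the falls of Rrm1, Rfc4, Dut and Top2a was not tested further.

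Cit stood apart from the other 44 genes. It encodes citron kinase, which acts at the midbody when daughter cells separate, and neurons make a shorter form from the same gene that lacks the kinase part. Counts per gene do not tell these forms apart. The gene lies at chr5:115845278-116008947 on the plus strand (GRCm38). In quiescent NSC-like cells it had 3.87 and 3.99, 5.17 and 15.6, 3.83 and 3.41, and 20.5 and 41.8 CPM in the pairs of mice. The 2 old KO mice stood above all other mice, and the rise with age in KO was 3.09 ± 0.43 on the log2 scale (adjusted p = 2.93e-05, edgeR). It was called in all 4 fits that left out 1 mouse and in all 10 other alternatives in which it could be tested. With age in WT its log2 change was 1.60 ± 0.60 (adjusted p = 0.0659, edgeR), and the interaction of age and genotype was 1.49 ± 0.85 (adjusted p = 0.472, edgeR), so the rise was not shown to differ between genotypes.

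The Cit UMIs of old quiescent cells lay mainly in 1 cluster, led by Gabbr2, which also held Nkx2-1, a transcription factor of the ventral forebrain. Of its cells with a vSVZ hashtag 3 of 30, 16 of 61, 0 of 25 and 40 of 119 had a Cit UMI by library (0 of 25 leaves a share of up to 12%). Cit stood at 117 and 124 CPM in that cluster in the old KO mice and at 6.45 and 14.5 CPM in their remaining quiescent cells. Old WT mice had 26.7 and 84.2 CPM in the cluster, and 2.34 and 4.29 in the rest. The cluster took up 7.14% and 7.52%, 11.5% and 16.1%, 5.70% and 4.83%, and 14.3% and 28.9% of quiescent cells in the pairs of mice, more in each old mouse than in any young one. Without the cluster, which was chosen for its Cit level and left out after seeing the data, Cit was too low to be tested.

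Neuron-like cells had Cit at 237, 271, 271 and 295 CPM, more than TAP-like cells (28.8 to 70.9) and neuroblast-like cells (40.6 to 46.1) as a whole. The dividing neuroblast-like cluster came near them, with 153, 255, 203 and 234 CPM of Cit. In the quiescent class as a whole the 8 neuron markers summed to 74.5, 45.2, 91.5 and 70.0 CPM, with none of the 8 at 0 in all libraries. They were not summed in the cluster led by Gabbr2 alone, so a part of neuron RNA in its Cit level was not tested. Of the 6 genes nearest to Cit, 3 on each side, 4 were tested in quiescent cells and 0 were called in any comparison. Prc1, the other cytokinesis gene and a bundler of spindle microtubules, had 3, 1, 14 and 2 UMIs in quiescent cells.

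**Figure D4:**
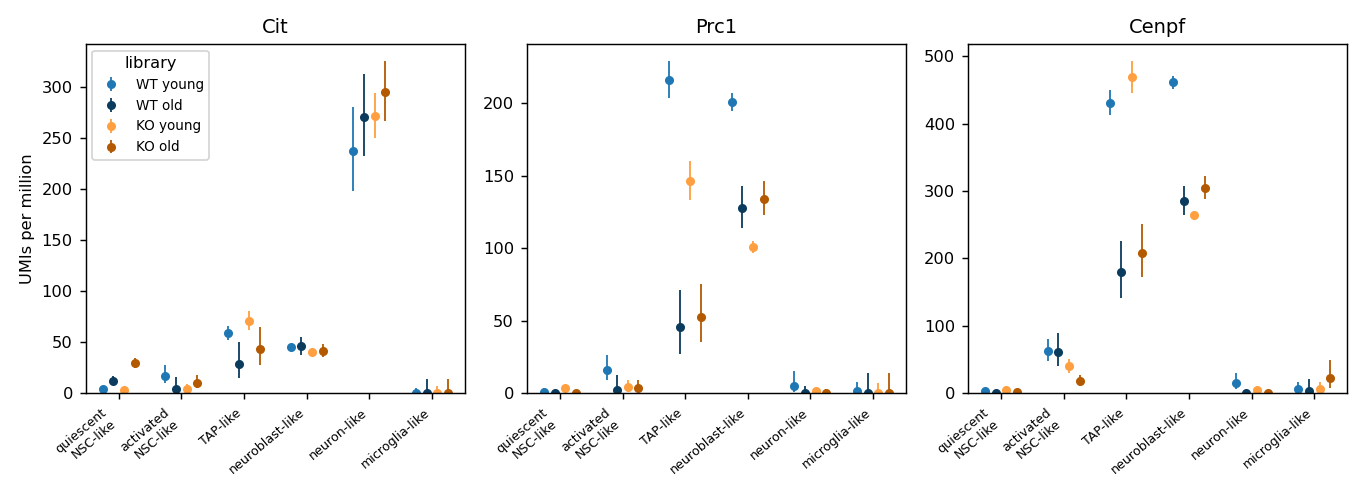
CPM (exact 95% counting intervals) of Cit, Prc1 and Cenpf by cell class and library. Prc1 and Cenpf are low outside the dividing classes, whereas Cit is highest in neuron-like cells at 237 to 295 and reaches 29.6 in quiescent cells of KO old.

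In neuroblast-like cells, 44 of the 45 genes were tested. Within the limits of the cell filter, 10 mitosis genes and no replication gene were lower in KO young than WT young mice (1.05% of all 6646 genes called, 0.527% lower), and 5 mitosis genes were lower in old WT mice (2.63% called, 1.23% lower). Cdca8, Ube2c, Cdc20 and Ccnb1 were in both sets, and these comparisons share the WT young mice. No call of either set was left once barcodes above the limits were kept, as given below.

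Ccnb1 had 139 and 192, 84.9 and 65.8, 47.5 and 79.5, and 60.5 and 28.1 CPM in the pairs of mice. Both WT young mice stood above the other 6, with a log2 change of -1.32 ± 0.24 (adjusted p = 0.00355, edgeR) for genotype in young mice and -1.15 ± 0.28 (adjusted p = 0.0214, edgeR) for age in WT. Cdca8 had 257 and 262, 118 and 122, 129 and 163, and 160 and 104 CPM, likewise without overlap. Its changes were -0.80 ± 0.17 (adjusted p = 0.0179, edgeR) and -1.13 ± 0.20 (adjusted p = 0.00252, edgeR). Ube2c had 200 and 189, 82.3 and 88.8, 77.9 and 108, and 95.1 and 42.1 CPM, and changed by -1.02 ± 0.21 (adjusted p = 0.0143, edgeR) and -1.21 ± 0.25 (adjusted p = 0.00841, edgeR).

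Cdc20, the activator of the anaphase promoting complex, had 101 and 195, 61.7 and 72.4, 58.9 and 68.8, and 62.7 and 33.7 CPM. It fell by 1.21 ± 0.26 for genotype (adjusted p = 0.0179, edgeR) and by 1.20 ± 0.30 for age (adjusted p = 0.0262, edgeR). Tpx2, which builds spindle microtubules around chromosomes, had 223 and 264 CPM in WT young and 76.0 and 141 in KO young mice and fell by 1.10 ± 0.21 (adjusted p = 0.00475, edgeR). Cenpf had 530 and 459 CPM in WT young against 150 and 342 in KO young mice and fell by 0.93 ± 0.22 (adjusted p = 0.0326, edgeR). The others for genotype were Cenpe, a kinetochore motor, Birc5, the survivin subunit of the passenger complex, Ccna2, the cyclin of S phase and G2, and Prc1, with log2 changes of -1.23 to -0.89 and adjusted p of 0.0188 to 0.0414 (edgeR). Aurka, with 66.1 and 89.4 CPM in WT young against 30.9 and 39.5 in WT old mice, was the fifth for age (-1.19 ± 0.33, adjusted p = 0.0476, edgeR).

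The mice are known only for hashtagged cells, which made up 6.86%, 27.7%, 7.35% and 19.8% of the class. Summed mitosis genes were at 3948, 2865, 2265 and 2317 CPM in hashtagged and 3706, 2303, 2240 and 2588 in the other cells. Summed replication genes were at 1817, 1842, 1941 and 1825 CPM in hashtagged and 2408, 1563, 1829 and 1718 in the other cells, so the lower replication level of KO young than WT young was seen in the cells without a hashtag and not in those tested.

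These counts leaned on single mice. For genotype in young mice, 5 members were called without WT young replicate 1, 8 without WT young replicate 2, 1 without KO young replicate 1 and 15 without KO young replicate 2. For age in WT the counts were 6 and 2 without the first and second WT young replicate, and 0 without either WT old mouse. DESeq2 called 2 members in each comparison. No member was called by edgeR or DESeq2 for age in KO (0.0301% of all genes called by edgeR, 2 members at an unadjusted p below 0.05), for genotype in old mice (0% of all genes, 370 genes and 4 members unadjusted) or for the interaction (0.166%, 7 members unadjusted). Leaving out KO young replicate 1 brought 1 call for age in KO, and leaving out KO young replicate 2 brought 1 for the interaction.

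The dividing cluster took up 12.7% and 12.1%, 7.27% and 13.6%, 7.41% and 9.03%, and 9.23% and 5.56% of hashtagged neuroblast-like cells in the pairs of mice, from 3 to 17 of its cells a mouse. Over all cells of the class, hashtag or not, its share was 12.9%, 7.82%, 8.24% and 7.32%. Without this cluster, which was picked for its mitosis level, 23 members could be tested. Of these 0 were called for age in WT (2.79% of all genes called). For genotype in young mice Uhrf1 alone was called, as higher in KO (0.672% of all genes).

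With the barcodes above the limits kept, none of the 15 lower values was called. For genotype in young mice 3 members then rose (0.929% of all genes called), Top2a by 0.67 ± 0.14 (adjusted p = 0.0126, edgeR), Uhrf1 by 1.07 ± 0.26 (adjusted p = 0.0364, edgeR) and Mcm3 by 0.93 ± 0.23 (adjusted p = 0.0444, edgeR). For age in WT (2.46% of all genes called), Cdk1, the kinase partner of cyclin B, rose by 0.59 ± 0.16 (adjusted p = 0.0447, edgeR). Ccnb1 stood at 153 and 179, 153 and 123, 89.5 and 151, and 147 and 145 CPM in the pairs of mice, and Cdca8 at 270 and 256, 177 and 245, 242 and 261, and 236 and 272 CPM. Summed mitosis genes in the whole class were at 4100, 4198, 3784 and 4468 CPM by library, and the dividing cluster took up 14.4%, 11.0%, 12.9% and 12.4% of the class. Of the cells of that cluster 37 of 524, 13 of 42, 148 of 420 and 30 of 79 lay over the limits, the smallest share in WT young. The lower mitosis genes of the other groups went with the share of deep dividing cells that the limits removed, whose part was not tested beyond this refit.

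**Figure D5:**
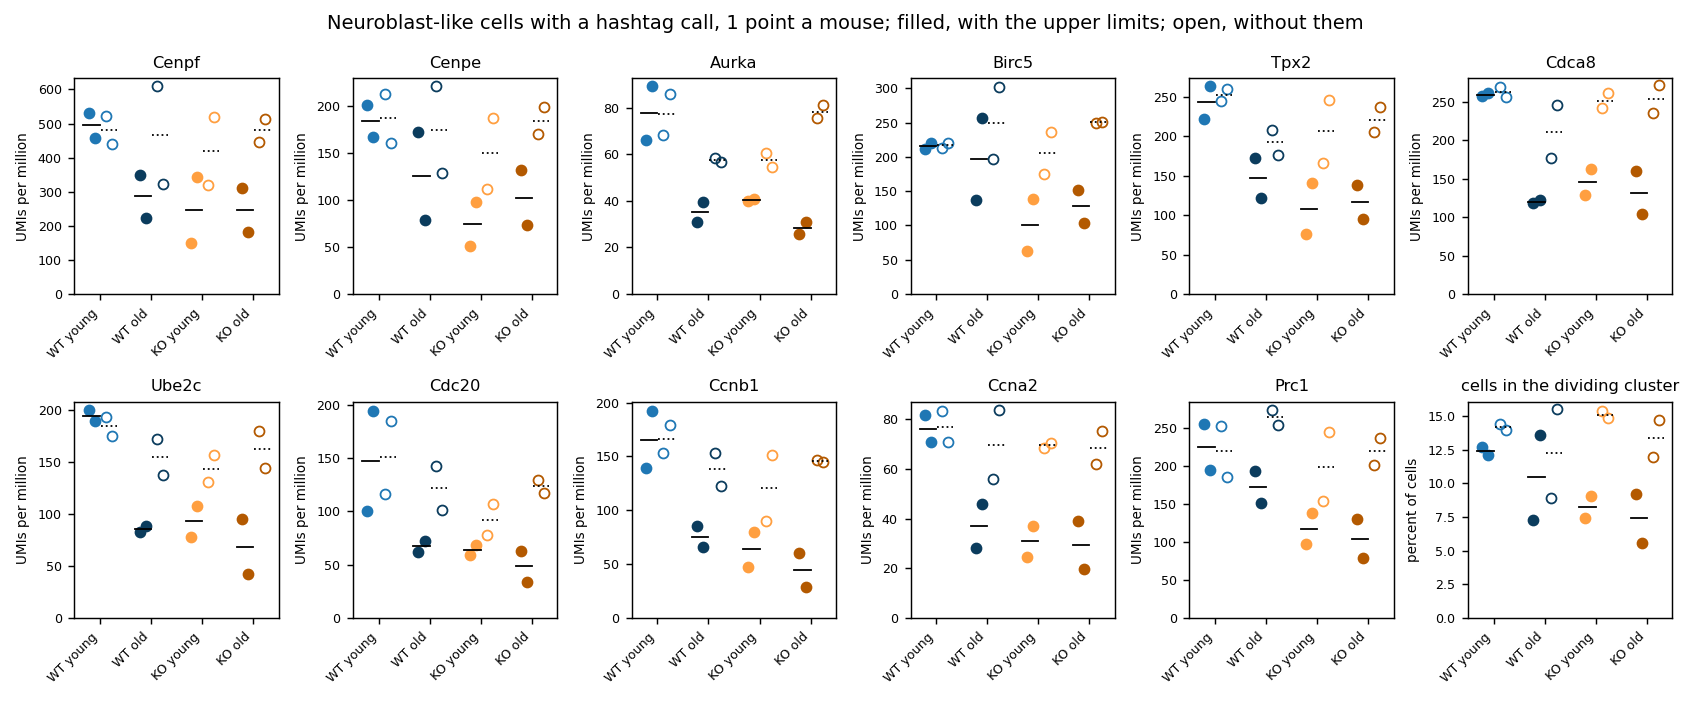
CPM (linear axes from 0) of the 11 members called in neuroblast-like cells within the limits, and the percentage of cells in the dividing cluster (last panel), with 1 point a mouse and bars at the means of 2 mice. Filled points and solid bars are within the limits on UMIs and genes and open points and dotted bars are without them. Filled WT young points stand above all other mice for Ccnb1, Ube2c and Cdca8, and open WT young points overlap other mice for Ube2c and Cdca8.

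In quiescent cells the limits acted on 3 cells. Without them 2 KO young cells brought 622 of the 957 mitosis UMIs of that library's quiescent class. Then 4 mitosis genes (Top2a, Mki67, Nusap1 and Cenpf) were called higher for genotype in young mice (2.57% of all genes called), and 9 members were called for age in KO (5.3% of all genes), 8 of them lower and Cit higher. The falls of Rrm1, Rfc4 and Top2a with age in WT were called with and without the limits.

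Other genes of the same processes, 33 of replication and 37 of mitosis, were read from a second list. In neuroblast-like cells 7 of 32 mitosis genes tested fell for genotype in young mice, against 0.527% of all genes called lower. With age in WT 2 of 32 fell, against 1.23% of all genes, and 0 of 19 replication genes were called in any comparison. Hmmr, a spindle and motility protein, fell most, by 1.86 ± 0.27 (adjusted p = 0.000177) for genotype and by 1.38 ± 0.29 (adjusted p = 0.00946, edgeR) for age. In quiescent cells 2 of 17 replication genes (Rpa2 and Tipin) and 2 of 10 mitosis genes (Nuf2 and Smc4) fell with age in WT, against 8.07% of all genes. With age in KO 2 of 10 mitosis genes (Nuf2 and Pbk) fell, against 2.39% of all genes. With so few genes tested, the shares of these lists are known only roughly. These counts are within the limits of the cell filter and come from the cells described above.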

How the data were processed

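Single cells of vSVZ and of the pooled other regions were measured in 4 expression libraries with 4 matching hashtag libraries, and 1 sample without a group in its labels was not used. The authors counted UMIs with kallisto and bustools and hashtags with CITE-seq-Count, and the deposited matrices hold raw UMI counts per gene or hashtag and barcode (844265 barcodes over 4 libraries, with no cell filter). The genome build in the submitters' processing notes is GRCm38, and gene positions come from GENCODE vM21 by ID.

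Barcodes were kept from 1000 to 20000 UMIs and from 100 to 6000 genes when mitochondrial genes gave below 10% of UMIs, with the upper limits of the study's methods, and 331 doublets predicted by Scrublet were removed. Leiden clusters (scanpy 1.11.5, leidenalg 0.10.2, resolution 1, 2000 variable genes, 50 components, 15 neighbours) were named from marker genes, and a cluster of activated and TAP-like cells was divided further at resolution 0.3. Hashtags were called with a mixture of 5 components. Counts were summed per mouse with 20 or more cells of a class and tested with edgeR 4.0.16 (filterByExpr, TMM, quasi-likelihood, Benjamini-Hochberg over all genes), with DESeq2 1.42.0 as an alternative. Genes compared between classes had 10 or more UMIs in either class, and 1 CPM was added before a ratio. On simulated counts with 200 genes changed 2-fold, 56.5% were recovered for age in WT and 75% for age in KO in quiescent cells, and 41.5% and 47.5% in neuroblast-like cells.

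The 45 members and the further lists were chosen with earlier results of these data known. Named genes were 1 to 3 preset members of each role, each called member and the 3 largest and 3 smallest ratios of a class comparison. The further alternatives without upper limits, without the dividing or the Cit-rich cluster and with activated and TAP-like cells undivided were chosen after seeing the data.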

Additional observations from a re-analysis of the deposited data

How the results depend on the processing

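Classes, ratios and counts were recomputed under each alternative. Members called kept within 1.5 times the reported count in 111 of 148 alternatives. A count of 0 that stayed at 0 was taken as kept, so comparisons without any called member add to this number. Ratios kept within the spread of libraries in 19 of 25 alternatives, while 4 moved and 2 reversed. The share of cells stayed the same in 7 of 15 alternatives and moved in 8. Of 272 refits of a called member, 166 kept the call, 105 were weaker and 1 reversed. The log2 mitosis to replication ratio of neuroblast-like cells was 0.21 with cell cycle genes kept in the clustering, where no cluster was named TAP-like. It was 0.78 without the upper limits, 0.11 in thinned cells, 0.087 as a mean over cells and -2.34 without the dividing cluster. That of TAP-like cells was 0.65 without the upper limits. The share of cells with a UMI was 23.8%, 48.3%, 95.5% and 59.5% in quiescent, activated, TAP-like and neuroblast-like cells thinned to 1000 UMIs, and 51.0%, 91.8%, 99.9% and 84.6% at 2 or more UMIs. From quiescent to activated cells 9 members were over 2-fold higher with cell cycle genes kept, 15 in thinned cells and 13 at a fold of 4, and from activated to TAP-like cells 27 at a fold of 4. The causes were not tested.

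For neuroblast-like cells, members called for age in WT were 14 with cell cycle genes kept, a setting in which no cluster was named TAP-like. They were 2 by DESeq2, 1 without the upper limits and 0 without the dividing cluster. For genotype in young mice they were 2 by DESeq2, 3 without the limits and 1 without that cluster. For quiescent cells they were, for age in WT, 1 with cell cycle genes kept, 0 by DESeq2, 5 without a low-count filter, 1 with a strict hashtag call, 1 without the Cit-rich cluster and 0 without the eYFP-rich cluster. For age in KO they were 1, 1, 8, 1, 1 and 1 in that order, and 9 without the upper limits. For genotype in old mice 1 was called with cell cycle genes kept, with doublets kept and without the filter, and for genotype in young mice 4 without the limits. Among these, the 1 call with cell cycle genes kept for age in WT was Cit, which was higher, and Cit was also the 1 higher call of the 5 and of the 8 without the filter. With a minimum of 10 cells activated cells had 3 calls for age in WT, with 1 WT old mouse, and TAP-like cells could not be fitted (3 mice).

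Leaving out 1 mouse gave, in neuroblast-like cells, 0 to 6 members for age in WT, 1 to 15 for genotype in young mice, 0 to 1 for age in KO, 0 to 1 for the interaction and 0 to 0 for genotype in old mice. In quiescent cells it gave 0 to 2 for age in WT, 1 to 3 for age in KO, 0 to 1 for genotype in old mice and 0 to 0 for genotype in young mice and for the interaction. The log2 change of Top2a for age in WT in quiescent cells ran from -3.09 to 0.013, the latter without WT young replicate 2. With 1 mouse left in a group, it is assumed to vary like the others. No paired analysis was possible because a hashtag number shared by groups names other mice in each. With a strict hashtag call neuroblast-like cells could not be fitted (3 mice). Depth limits members with few UMIs, of which 25 could not be tested in quiescent cells.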
